A study of Mus musculus with 9 samples.

Results

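Embryoid bodies at day 8 of culture were compared between Hnrnpll knockout and wild-type mouse cells by polyA+ RNA-seq, using the 3 libraries of the series' 9 that the labels place at this day, and all genes of the count and TPM tables (TPM is a length-scaled transcript abundance). Embryoid bodies are aggregates in which stem cells differentiate without an imposed pattern, and here they were grown in hanging drops from cells kept in serum and leukemia inhibitory factor. Wild type gave 1 library. The Hnrnpll-/- genotype gave 2, from the knockout lines called G6 and H8. The other 6 libraries, from the same 3 lines as stem cells (day 0) and as bodies of day 4, entered the model only for the spread between libraries and for the tests of a difference between days. How the knockout was made, whether G6 and H8 are clones and which line they came from are not given in the sources used here, and nothing says that libraries came from repeated cultures, so p-values measure only the spread between these libraries. Since wild type is 1 library of 1 line, genotype, line and culture cannot be told apart.

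By the second week, embryoid bodies of wild-type cells usually hold beating cardiomyocytes, primitive red cells that make embryonic globins, endothelium, and an outer endoderm that resembles the visceral yolk sac and secretes apolipoproteins and carrier proteins. Genes of the pluripotency network are switched off as these types form. The product of Hnrnpll binds RNA, belongs to the hnRNPs and is best known for regulating splicing in lymphocytes. The series asks how its loss alters expression while the bodies form.

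The promoters of 4 genes that stood far apart between the genotypes are shown because cardiac and red cell genes each share short motifs known to bind their regulators. Each line gives the bases before the start of the gene, 5′ to 3′ on the gene's strand, from RefSeq on GRCm38.p6 and its start; 200 bases were searched, and any that GENCODE M21 places in an exon are not printed. Capitals mark matches, on either strand, to TATAAA, to AGATAA or TGATAA (the core bound by GATA factors), to CCAAT, and to the CArG box, the site of serum response factor. No printed match overlaps another. The Actc1 gene of GENCODE M21 begins further upstream than that of RefSeq, at base 114053548, so that the window shown lies within it.
Actc1, chr2:114052888-114053075, minus strand: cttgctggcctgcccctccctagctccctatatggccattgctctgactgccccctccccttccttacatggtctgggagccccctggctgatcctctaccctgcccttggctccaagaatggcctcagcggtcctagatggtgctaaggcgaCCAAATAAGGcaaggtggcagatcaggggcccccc
Myl7, chr11:5898783-5898982, minus strand: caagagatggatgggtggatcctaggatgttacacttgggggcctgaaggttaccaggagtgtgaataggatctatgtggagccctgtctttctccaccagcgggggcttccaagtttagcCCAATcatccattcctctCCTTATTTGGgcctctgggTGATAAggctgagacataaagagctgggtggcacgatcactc
Hbb-y, chr7:103853217-103853407, minus strand: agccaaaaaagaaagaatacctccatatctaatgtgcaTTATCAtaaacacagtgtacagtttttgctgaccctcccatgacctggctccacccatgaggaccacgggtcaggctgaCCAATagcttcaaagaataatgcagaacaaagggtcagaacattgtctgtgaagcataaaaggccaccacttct
Alas2, chrX:150547217-150547374, plus strand: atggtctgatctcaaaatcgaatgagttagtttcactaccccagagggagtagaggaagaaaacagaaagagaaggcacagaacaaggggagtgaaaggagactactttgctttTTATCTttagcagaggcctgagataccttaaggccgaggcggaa

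The cardiac alpha-actin gene Actc1 and the atrial light chain gene Myl7 each held a CArG box, 47 to 38 and 61 to 52 bases before the start. The GATA core lay in the promoters of Myl7, Hba-x, Hbb-y and Alas2. The Hba-x promoter also held TATAAA, 28 to 23 bases before the RefSeq start. Its window is not printed because too much of it lies past the start of an exon of GENCODE M21. The TATAAA match is in that part. Over the cardiomyocyte list, 5 of 32 promoters (15.6%) held a CArG box, against 1.18% of all 32851 promoters of the table. In the blood list 12 of 29 promoters (41.4%) held the GATA core, against 13.2% of all promoters. The table matched all 26 cardiomyocyte genes and 23 of 31 blood genes, some with several starts. Such matches are a description of these windows and not measured sites.

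The 3 libraries of day 8 held 135562895 (wild type), 154674240 (G6) and 184952442 (H8) counts, among totals from 54218051 to 184952442 over the series, and 30.7% to 33.2% of their low counts were multiples of 4, so that 1 count is not always 1 fragment. Hnrnpll itself (chromosome 17, 80029487 to 80062334, mm10) had 112 TPM in wild type, 56.5 in G6 and 43.5 in H8. Both knockout libraries were thus lower, but RNA of the gene remained and the difference (log2 -0.97, SE 0.452) did not pass (edgeR adjusted p = 0.212; 0.0458 with the knockout line as a block). The counts are for the whole gene and overlap 2 other annotated genes, so they check the labels only in direction. Where 3 values follow a gene they are those of wild type, G6 and H8 in this order. The block is a term for the line in the same model. It takes a lasting difference between G6 and H8 out of the spread, so its p-values do not count that disagreement. A gene can thus pass with the block where the lines disagree. The Y-linked gene Eif2s3y had 134 TPM in wild type and 0 in G6 and H8 (at least 14000-fold lower), and Ddx3y and Uty were at least 7990-fold and 5570-fold lower, while Xist, the RNA that silences an X chromosome, was at 0.285, 1.43 and 1.68 TPM (log2 2.65, edgeR adjusted p = 0.0489; 0.0539 with the line as a block). At day 0 Xist lay the other way (8.42 TPM in wild type, 2.9 in G6 and 3.63 in H8), and the knockout stem cells had some Y-linked RNA, with 2.15 and 1.54 TPM of Eif2s3y against 129 in wild type.

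Markers of most mesoderm and endoderm cell types were higher in the wild-type library and pluripotency markers in the knockout lines. Summed over 5 pluripotency markers, wild type was at 409 TPM and G6 and H8 at 2613 and 2589. Summed markers of cardiomyocytes were at 234, 7.04 and 10.1 TPM, those of primitive red cells at 533, 1.43 and 5.68, and those of yolk sac endoderm at 365, 36.5 and 48.2. In bulk RNA, fewer cells of a type and less RNA of its genes per cell cannot be told apart. Summed neuron markers were at 47.6, 122 and 112 TPM, of which Stmn2, itself at 164 TPM in wild-type stem cells, made up 15.8, 104 and 83.3. Tubb3 (31.5, 16.2 and 27.1 TPM) and Dcx (0.0812, 0.0382 and 0.0264) lay below wild type in both lines. Elavl3 (0.225, 1.15 and 1.49 TPM), like Stmn2, lay above in both, but did not pass (edgeR adjusted p = 0.0569). Summed trophoblast markers were at 58.2, 33 and 41.5 TPM, with 2 of 4 below wild type in both lines and 2 above. Cdx2 (37.3, 1.77 and 4.69 TPM) and Gata3 (8.98, 2.32 and 4.6) lay below. Krt7 (11.7, 28.6 and 31.8) and Elf5 (0.214, 0.326 and 0.409) lay above. Leukocyte markers were low in all 3 libraries (3.47, 5.49 and 3.97 TPM), and Csf1r made up 3.32, 2.84 and 1.9 of these sums. Csf1r lay below wild type in both lines and the other 3 of 4 above. Of those Itgam (0.116, 1.92 and 1.34 TPM) was called higher (14-fold, edgeR adjusted p = 0.021), as was Spi1, given below. Of 4 skeletal muscle markers 3 were under 1 TPM in wild type and 3 in both knockout lines.

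**Figure D1:**
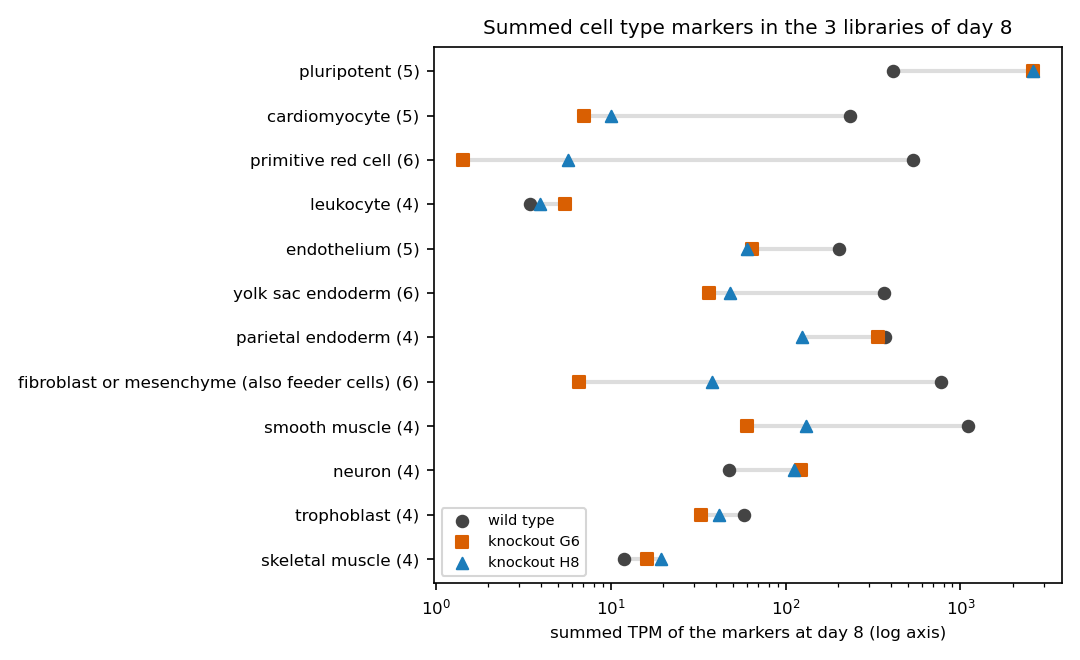
Summed TPM (log axis) of cell type markers in the wild-type library (circles) and in the knockout lines G6 (squares) and H8 (triangles) at day 8, with the number of markers in parentheses. Pluripotency markers lie at 2613 and 2589 TPM in the knockout lines and at 409 in wild type, and cardiomyocyte, red cell, mesenchyme and yolk sac markers lie lower in both knockout lines.

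Across the transcriptome, 2446 of 24794 genes tested differed at day 8 by edgeR's quasi-likelihood test (adjusted p under 0.05): 1241 were higher in the knockout (5.01% of genes tested) and 1205 lower (4.86%). The lower genes were protein-coding in 96.7% of cases and the higher ones in 79.2%, against 69.5% of genes tested. The median log2 difference of all genes was 0.08. Higher genes made up 50.7% of calls, but 35.2% with limma-voom and 32.1% with limma on log2(TPM + 1). The test takes its spread from the pairs of knockout libraries at the 3 days, and the calls lean on single libraries: without either day 4 knockout library 0 genes were called (edgeR; 6152 at an unadjusted p under 0.05 in each case), and with the 3 day 8 libraries alone 0 (8019 unadjusted; an alternative added after the data were seen). Without G6 at day 8 only H19 and Eif2s3y passed, so that of the lists described next no other call was left. Without H8 572 genes passed, without the day 0 libraries 4188, and without 1 knockout library of day 0 4176 (G6) or 4196 (H8); DESeq2 called 5385 and limma-voom 3769 with all libraries.

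Pluripotency genes rose together in the knockout. Of 16 genes of naive pluripotency, the network of the ground state, 11 were higher and 0 lower, with a median log2 difference of 2.58. Of 15 general pluripotency genes 12 were higher and 1, Lin28a, was lower (median 2.46). Nanog, a homeobox factor of the network, had 59.8 TPM in wild type, 398 in G6 and 496 in H8 (8.12-fold higher, log2 3.02, SE 0.339, edgeR adjusted p = 0.0176). Pou5f1, the gene of the POU factor Oct4, was at 178, 1088 and 1013 TPM, and Sox2, its partner, at 75.7, 415 and 350. Among naive factors the orphan nuclear receptor genes Esrrb and Nr0b1 were at 20.9, 229 and 219 TPM and at 12.3, 149 and 119 TPM (log2 3.11 and 3.56).

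Stem cell levels give a scale for these values. Wild-type stem cells of day 0 had 272 TPM of Nanog and 143 of Esrrb, and the knockout lines had 583 and 606 of Nanog and 286 and 348 of Esrrb. At day 4 G6 and H8 had 71 and 71.2 TPM of Esrrb and 144 and 214 of Nanog, so that both genes stood higher at day 8 than at day 4 in each knockout line; in wild type Nanog went from 216 to 59.8 TPM and Esrrb from 22.9 to 20.9. The growth factor gene Fgf4 (21.4, 131 and 124 TPM), the Nodal co-receptor gene Tdgf1 (76.6, 522 and 608) and the small RNA-binding protein gene Dppa5a (715, 4209 and 3820) had the same pattern between the genotypes, and all 3 were called higher. Members that did not pass included Klf4 (26.2, 68 and 108 TPM; edgeR adjusted p = 0.094, 0.0482 with the block), Tbx3 (46.1, 66.1 and 93.9) and Sall4 (63.7, 73.1 and 58.9). Lin28a, a repressor of let-7 maturation that stays on beyond the naive state, was at 316, 175 and 161 TPM (log2 -0.78, edgeR adjusted p = 0.0354). Processed copies of Nanog, Pou5f1 and Dppa5a exist elsewhere in the genome, so reads may have been shared with them. Without H8 at day 8, 7 naive and 9 general genes were called higher.

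**Figure D2:**
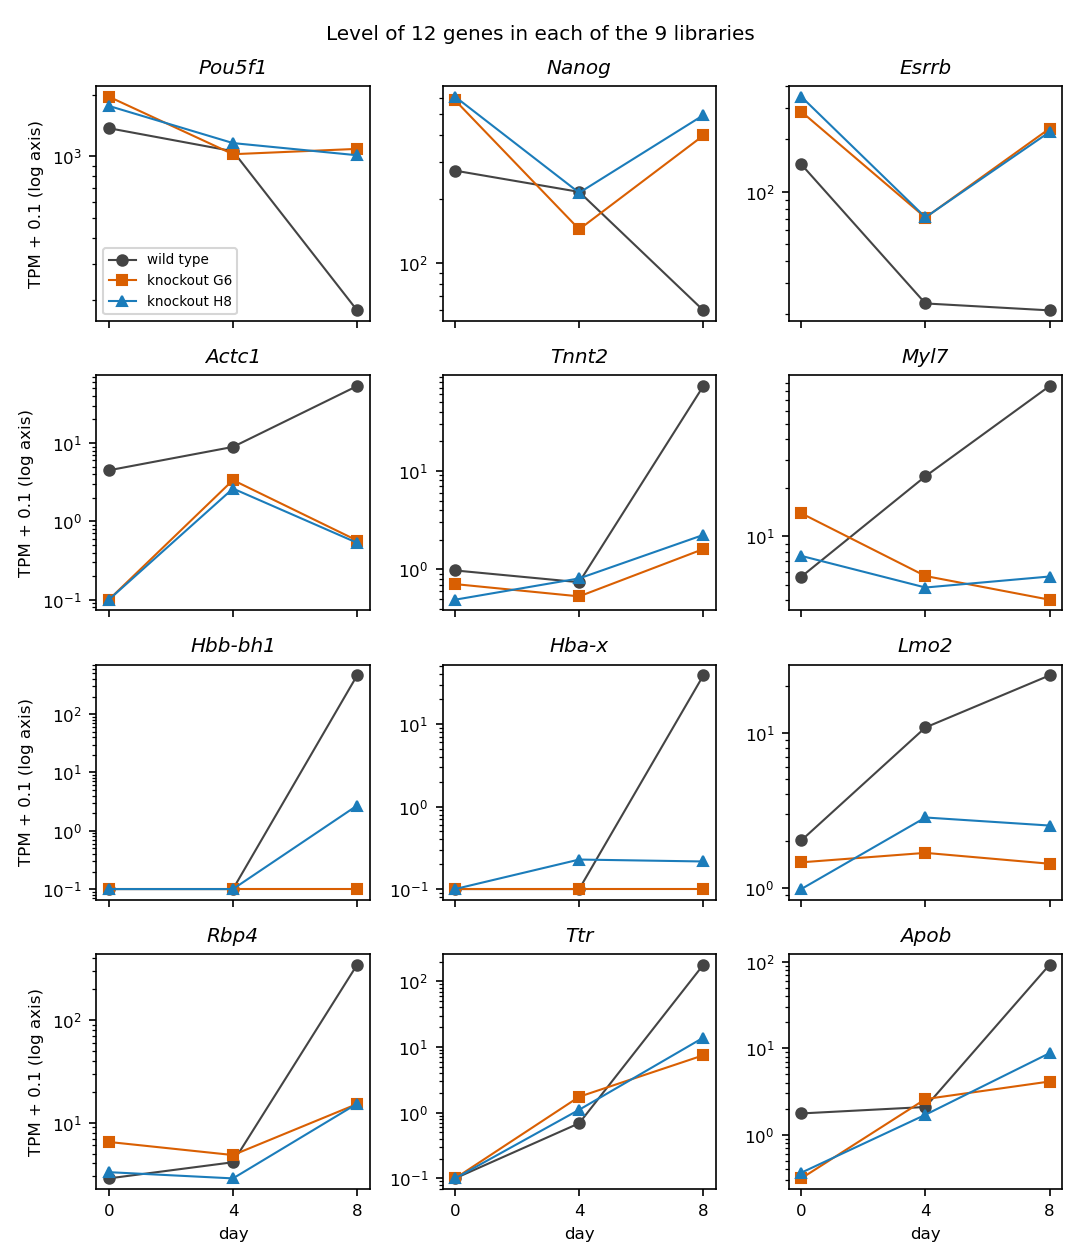
TPM plus 0.1 (log axis, a range of its own in each panel) of 12 genes in wild type and in the knockout lines G6 and H8 at days 0, 4 and 8, 1 library per point; lines only join the points. At day 8 the pluripotency genes (top row) lie higher and the cardiac, blood and yolk sac genes (rows below) lie lower in G6 and in H8 than in wild type.

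Cardiac genes were lower in the knockout, from transcription factors to the sarcomere. Of 24 cardiomyocyte genes tested (26 in the list; Myoz2 and Smpx did not reach the count minimum), 10 were lower and 0 higher, and the median was -2.93, against 0.08 for all genes. Actc1 (chromosome 2, 114047282 to 114053548), the actin of the heart's thin filament whose promoter is shown above, had 53.2 TPM in wild type, 0.469 in G6 and 0.432 in H8. That is a 108-fold fall (log2 -6.75, SE 0.367, edgeR adjusted p = 0.0142). Tnnt2, cardiac troponin T (chromosome 1, 135836354 to 135852260), was at 72.5, 1.51 and 2.14 TPM, which is 35.2-fold lower. No knockout library came near the wild-type level for either gene. At day 0 and day 4 wild type had at most 8.81 TPM of Actc1 and 0.877 of Tnnt2.

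Of 7 thick filament genes 5 fell. The beta myosin heavy chain gene Myh7 was at 21.6, 0.285 and 0.661 TPM and the alpha chain gene Myh6 at 20, 0.857 and 1.49. Myl7 (chromosome 11, 5896637 to 5898782), the light chain gene of the atria, was at 85.7, 3.94 and 5.53 TPM (log2 -4.05, edgeR adjusted p = 0.0175), and the fetal light chain gene Myl4 at 51.7, 6.45 and 7.65. Myl2, the ventricular light chain gene, was at 9.78, 1.15 and 1.09 TPM and did not pass (edgeR adjusted p = 0.0548; 0.0432 with the block). Of thin filament genes Tnnc1 also fell (47.8, 1.7 and 5.37 TPM). Of the genes of the Z disc and of calcium handling the giant spring gene Ttn (2.45, 0.167 and 0.173 TPM) and the sodium-calcium exchanger gene Slc8a1 (11, 0.272 and 0.452) fell, and Mybpc3, which binds the thick filament, was at 7.23, 0.963 and 1.01 TPM. The peptide hormone genes Nppa (2.37, 0.23 and 0.359 TPM) and Nppb (2.71, 1.78 and 2.13) did not pass. The list was not uniform: Tnni3 (4.3, 6.52 and 9.59 TPM), Actn2 (1.43, 1.95 and 3.08) and Casq2 (1.89, 1.63 and 3.81) had fitted differences above 0, none past the threshold.

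Upstream of the sarcomere, 4 of 15 cardiac regulators fell and 0 rose (median -2.69). Isl1, a LIM homeobox factor of the second heart field, had 24.5 TPM in wild type and 1.06 and 2.88 in G6 and H8 (11.9-fold lower, edgeR adjusted p = 0.0243). The T-box gene Tbx20 was at 44.6, 0.705 and 2.61 TPM, Mef2c, a partner of GATA factors, at 7.52, 0.145 and 0.531 (edgeR adjusted p = 0.0494; 0.0526 with the block), and Smarcd3, the heart subunit of the BAF remodeller, at 24.6, 3.34 and 5.66. Other regulators did not pass. Nkx2-5, the homeobox gene of the heart tube, was at 2.84, 0.269 and 0.533 TPM (edgeR adjusted p = 0.0513), Hand1 at 239, 14.7 and 57.7 (0.0713; 0.0232 with the block), and Tbx5 at 1.25, 0.0436 and 0.207 (0.15). Gata4, which is shared by heart and endoderm, was at 25.3, 13.5 and 15.7 TPM (log2 -0.79, SE 0.645). In single lines, 18 of 24 cardiomyocyte genes lay over 2-fold below the wild-type library in G6 and 16 in H8, against 18.1% and 15.6% of all genes tested; both lines were set against the same wild-type library. With H8 left out 7 cardiomyocyte genes and 4 regulators were called; without the day 0 libraries, 15 and 6.

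Embryonic globins were present in the wild-type library and nearly absent from the knockout lines. Hbb-bh1, the beta-like globin of primitive red cells (chromosome 7, 103841637 to 103843164), had 462 TPM in wild type (18449 counts), 0 in G6 and 2.61 in H8 (166 counts). It did not pass (log2 -8.32, SE 2.08, edgeR adjusted p = 0.0874), and G6 and H8 differed from each other by 5.75 on the log2 scale; the value was 0.0171 with the line as a block, 0.0127 with limma-voom and 0.303 with DESeq2, and without H8 or G6 it was 0.037 or 0.075. The alpha-like gene Hba-x was at 38.9, 0 and 0.116 TPM, and Hbb-y at 23.5, 0 and 0. Hbb-y had 971 counts in wild type and none in the knockout, at least 866-fold lower. Both genes, with Hbb-bt, Hbb-bs, Rhag and the endothelial gene Emcn, stayed out of the test because they reached the count minimum in 1 library alone, and it asked for 2.

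Among 2161 genes that reached the minimum in 1 library only, 414 did so in the wild-type library of day 8. A minimum in 1 library, an alternative chosen after the data were seen, gave 2414 calls in all. The genes it adds from the wild-type library are chosen for being high there, so their values are given as a description with no test. Emcn, a sialomucin of veins and capillaries, had 5.58 TPM in wild type and no counts in either knockout line (at least 784-fold lower).

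Of 26 blood genes tested of 31, 5 fell and 1 rose (median -1.78). The adult-type globin genes Hba-a1 (25.1, 0 and 0.431 TPM) and Hba-a2 (25.1, 0.36 and 0.482) fell, but as near-identical copies their separate levels are uncertain. Alas2, the first enzyme of haem synthesis in red cells (chromosome X, 150547375 to 150570638), was at 5.8, 0.328 and 0.977 TPM (10.2-fold lower, edgeR adjusted p = 0.0225). Lmo2, a bridging factor of blood stem cells and endothelium, was at 23.3, 1.33 and 2.42 TPM (10.8-fold lower), and Cd34, a sialomucin of both, at 35.1, 4.84 and 2.84. Spi1, the myeloid factor PU.1, was the gene that rose, at levels under 1 TPM (0.03, 0.691 and 0.715).

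None of the other 9 blood transcription factors passed. Gata1 was at 1.85, 0.465 and 1.55 TPM and Klf1 at 1.09, 0.636 and 0.424, neither past the threshold (edgeR adjusted p = 0.313 and 0.381). Tal1, which pairs with Lmo2, was at 14.6, 0.211 and 1.68 TPM (0.0597; 0.0319 with the block), and Runx1, the factor of definitive blood, at 13.4, 1.68 and 3.22 (0.0634). Kit, the receptor of stem cell factor, was at 80.1, 72.9 and 49.9 TPM (log2 -0.29, SE 0.481). Its ligand gene Kitl was at 44.3, 2.99 and 5.35 TPM and fell (log2 -3.36, edgeR adjusted p = 0.018). Without H8, 3 blood genes were called lower and none higher.

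In the endothelium list 7 of 23 genes tested fell and 0 rose, with a median of -2.11. Kdr, the VEGF receptor that marks mesoderm on its way to blood and vessels (chromosome 5, 75932827 to 75978458), was at 93, 1.29 and 4.96 TPM, a 28-fold fall (log2 -4.81, SE 0.833, edgeR adjusted p = 0.0278). Cdh5, the cadherin of vessel junctions, was at 35.2, 0.591 and 0.918 TPM (42.7-fold lower), Tie1 at 19.6, 0.853 and 1.07, Cldn5 at 19.9, 1.24 and 1.55, and Esam and Plvap fell as well (log2 -3.1 and -3.06). The angiopoietin receptor gene Tek had a smaller fall, from 32 to 12.8 and 11.6 TPM. None of 6 endothelial transcription factors passed, although Fli1 (11.9, 0.11 and 0.445 TPM; edgeR adjusted p = 0.0622, 0.0196 with the block) and Sox18 (15.8, 0.231 and 0.69) were low in both lines. Etv2, which starts the programme, was at 7.65, 1.67 and 1.94 TPM. Pecam1 lay the other way (21.1, 49 and 41.6 TPM; edgeR adjusted p = 0.14), and as background it is also a surface marker of mouse stem cells. Without H8 3 genes were called, and without the day 0 libraries 14 were lower and 1 higher.

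Yolk sac endoderm genes were lower in part. Of 30 tested of 31 (Alb was at 0 in all 3 libraries), 7 fell and 2 rose, and the median was -2.23. Rbp4, which carries retinol (chromosome 19, 38116629 to 38125281), had 346 TPM in wild type and 15.1 and 15.2 in G6 and H8 (20.7-fold lower, log2 -4.37, SE 0.435, edgeR adjusted p = 0.015). Its partner Ttr, the thyroxine carrier, was at 179, 7.39 and 13.8 TPM. Among lipid carriers Apob, the protein of the lipoprotein particle, was at 92.3, 4.02 and 8.67 TPM, Apoc2 at 112, 4.36 and 3.76, and Apom at 39.9, 1.83 and 3.95, and all 3 fell. So did Mttp, which loads lipid onto Apob (44.5, 14.5 and 11.3 TPM), and the pioneer factor gene Foxa1 (21.7, 0.455 and 1.54).

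Apoc1 rose, from 34.4 to 116 and 157 TPM (4.3-fold, edgeR adjusted p = 0.0399); wild-type stem cells of day 0 had 72 TPM of it and the knockout ones 76.8 and 138. Ahsg rose at a low level (0.0873, 1.37 and 1.26 TPM). Apoe, which is also made by stem cells, was at 671, 783 and 858 TPM (log2 0.35, SE 0.916). Of 8 endoderm transcription factors Foxa1 alone passed, and of 4 uptake genes none did; with the block Foxa2, Foxa3, Gata6 and the uptake gene Dab2 passed too. Hnf4a was at 12, 2.25 and 2.63 TPM (edgeR adjusted p = 0.0615), Foxa2 at 23.8, 5.15 and 1.38 (0.0691; 0.0487 with the block), Afp at 24.8, 5.41 and 14.5 (0.325), Apoa1 at 19.4, 1.64 and 3.89 (0.218) and the endocytic receptor gene Cubn at 37, 15.8 and 4.67 (0.54). Its co-receptor gene Lrp2 was at 23.6, 34.5 and 18.5 TPM, with G6 above and H8 below wild type. With the block 11 genes fell and 2 rose. With H8 left out 4 genes of the list were called lower and none higher.

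Genes of parietal endoderm and of the basement membrane it lays down were lower in part (median -0.91), more so in H8 than in G6. Of 10 genes 7 lay over 2-fold below wild type in H8 and 0 above, and 3 and 1 in G6. Of all genes tested, 15.6% lay below in H8 and 18.1% in G6, and 21.5% above in each. Lama1, the alpha chain of laminin-111, had 42 TPM in wild type, 100 in G6 and 26.4 in H8, and Col4a1 was at 250, 231 and 88.1; neither passed. Of 10 genes, Plat, tissue plasminogen activator (74.3, 5.85 and 8.58 TPM), and Nid1 (175, 67.6 and 74.5) fell and 0 rose. The marker gene Thbd (3.49, 0.835 and 1.96 TPM) lay below wild type in both lines and did not pass.

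The extracellular matrix of mesenchyme was lower in the knockout, and the lines differed in how much of it they had. Of 25 genes 10 fell and 0 rose (median -3.01). Col3a1, a fibrillar collagen (chromosome 1, 45311538 to 45349706), had 223 TPM in wild type, 0.331 in G6 and 3.66 in H8 (116-fold lower, log2 -6.85, SE 1.25, edgeR adjusted p = 0.0307). The proteoglycan and hyaluronan genes Nepn (42.3, 0.175 and 0.355 TPM), Hapln1 (26.9, 0.125 and 0.451), Dcn (11.5, 0.0735 and 0.444) and Vcan (176, 9.92 and 23.6) fell, as did Col6a3 (8.66, 0.0968 and 0.35) and Fbn1 of the elastic fibre (30.6, 1.9 and 4.88). Postn, secreted by valve and mesenchymal cells, was at 315, 0.335 and 8.33 TPM and did not pass (edgeR adjusted p = 0.0795), nor did Col1a1 (105, 1.74 and 12.2; 0.071) or Lum (56.8, 0 and 0.488; 0.0958, 0.0174 with the block). Smooth muscle genes followed with 2 of 10 lower, Tagln (319, 53.9 and 89.4 TPM) and Actg2 (3.39, 0.185 and 0.107). Acta2, smooth muscle actin, was at 780, 2.8 and 39 TPM (edgeR adjusted p = 0.0605; 0.0398 with the block), while the desmin gene Des was at 14.1, 14.4 and 25.5. Summed markers of fibroblasts or mesenchyme, which would also mark feeder cells, were at 163, 3.12 and 770 TPM in wild type at days 0, 4 and 8, at 112, 2 and 6.6 TPM in G6 and at 57.9, 2.41 and 37.9 TPM in H8. At day 8 all 6 markers were below wild type in both lines; the part of other cells in these differences was not tested. Without H8 13 matrix genes were called lower.

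Earlier mesoderm genes, mostly past their time at day 8, were uneven. Of the 18 genes of the list, 11 lay over 2-fold below wild type in G6 and 3 above, and 8 and 2 in H8. Of all genes tested, 18.1% lay below and 21.5% above in G6, and 15.6% and 21.5% in H8. Of 18 primitive streak and early mesoderm genes 2 fell, Foxf1 of splanchnic mesoderm (58.2, 0.349 and 2.99 TPM) and Twist1 of mesenchyme (76.2, 3.74 and 8.77), and the median was -0.56; with the line as a block 5 were lower and 2 higher. T, the brachyury gene of the streak, was at 8.08, 7.85 and 9.34 TPM, and Eomes at 12.6, 8.74 and 12.9. Tcf15, a paraxial mesoderm factor, was at 3.7, 53.4 and 30.9 TPM (edgeR adjusted p = 0.0644; 0.0404 with the block). Of 38 Hox genes tested of 39, which pattern the body axis, 10 fell and 0 rose (median -3.27). Hoxc8 was at 28.4, 0.245 and 1.05 TPM (log2 -5.33, edgeR adjusted p = 0.0393), Hoxd4 at 15.7, 0.541 and 1.61, and Hoxb8 at 6.15, 0.18 and 0.524. In G6 34 of the 38 lay over 2-fold below wild type and in H8 31, against 18.1% and 15.6% of all genes tested. Both lines were set against the same wild-type library.

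Of 41 genes of secreted signals 7 fell and 2 rose (median -1.32), and 11 fell and 4 rose with the line as a block. The 2 that rose are Nodal feedback inhibitors: Lefty1 was at 17.7, 75.2 and 48.5 TPM and Lefty2 at 28.3, 82.1 and 88. Nodal itself was at 18.4, 33.9 and 61.2 TPM (edgeR adjusted p = 0.304; 0.0432 with the block). The genes that fell included the chemokine Cxcl12 (75.6, 2.38 and 7.19 TPM), the vessel growth factors Vegfa (164, 57.7 and 86.9) and Vegfc (23, 8.64 and 8.41), the Notch ligand Jag1 (15, 2.97 and 3.78), Igf1 (4.31, 0.409 and 0.386) and Fgf3 (17.1, 1.45 and 3.94). Of 6 BMP and 9 WNT genes none passed; Bmp4 was at 119, 48 and 59.6 TPM and Bmp5 at 42.6, 0.178 and 5.42 (edgeR adjusted p = 0.187; 0.0497 with the block).

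Imprinted genes, many of which are strongly expressed in mesoderm, endoderm and placenta, fell in 13 of 30 cases and rose in none (median -2.07). Of 20 that are expressed from the paternal copy 7 fell, and of 10 from the maternal copy 6 did. H19, a maternally expressed noncoding RNA (chromosome 7, 142575529 to 142578143), had 986 TPM in wild type, 14.9 in G6 and 4.26 in H8 (99.6-fold lower, log2 -6.64, SE 0.792, edgeR adjusted p = 0.018) and remained called without either line. Its paternally expressed neighbour Igf2 was at 905, 33.5 and 347 TPM and did not pass (0.17). The growth genes Mest (1670, 46 and 130 TPM), Dlk1 (122, 1.48 and 9.72), Zim1 (119, 2.27 and 7.84) and Igf2r (513, 55.2 and 77.6) fell, and so did Usp29 (31.8, 2.42 and 5.48). Grb10 was at 359, 73.3 and 10.7 TPM (edgeR adjusted p = 0.225; 0.0392 with the block), Peg10 at 984, 308 and 887, and Snrpn, above wild type in both lines, at 94.9, 175 and 121, none past the threshold. Allelic expression was not analysed here.

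**Figure D3:**
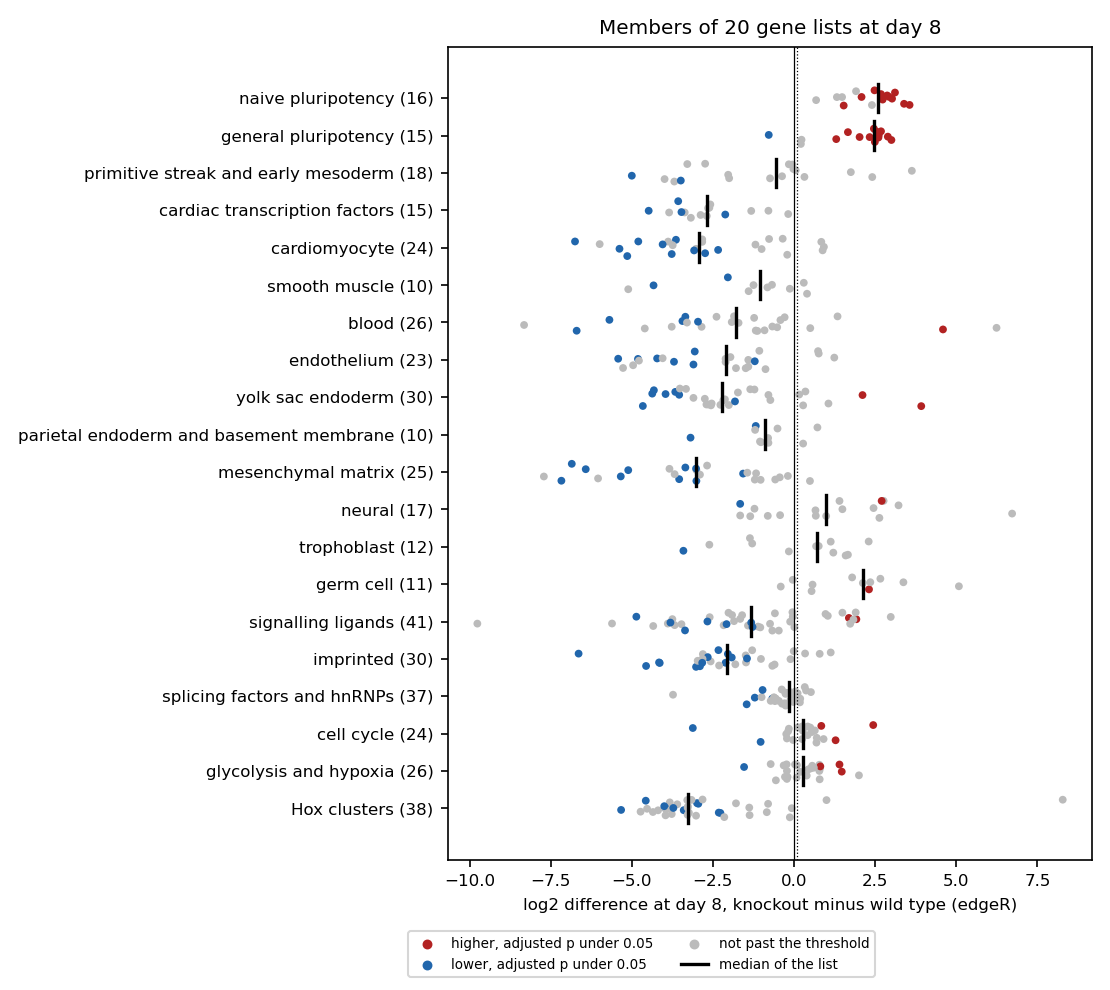
Log2 difference at day 8, knockout minus wild type, of each tested member of 20 lists (number tested in parentheses), with points coloured by the edgeR call and a bar at each list's median; the dotted line is the median of all genes (0.08). Pluripotency lists lie to the right (medians 2.58 and 2.46), and cardiac, matrix, Hox and yolk sac lists to the left (-2.93 for cardiomyocyte, -3.01 for matrix).

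Lists of other fates had few calls each in the main test, near the share of all genes tested (5.01% higher and 4.86% lower). With the block 1518 of all 24794 genes were higher and 1573 lower. The germ cell and neural lists then exceeded that share for higher genes. Of 17 neural genes tested of 20, Stmn2, a tubulin-binding protein, rose (15.8, 104 and 83.3 TPM) and the progenitor filament gene Nes fell (34.9, 8.45 and 12.1), and the median was 0.99; with the block 4 rose and 1 fell. The forebrain and epiblast factor gene Otx2 was at 34.8, 115 and 52.1 TPM (edgeR adjusted p = 0.146; 0.0461 with the block), and Pax6, Sox1 and Neurod1 were under 3 TPM in all 3 libraries; with the block Sox1 and Neurod1 passed (edgeR adjusted p = 0.0449 and 0.0257). Of 11 germ cell genes Dazl, an RNA-binding protein of germ cells, rose (4.92, 27.7 and 17.2 TPM), and with the block 6 rose, among them Stra8 of meiotic entry (0.422, 23.1 and 11.7 TPM; edgeR adjusted p = 0.0171) and Ddx4 (3.13, 14.7 and 10.3; 0.0198). The germ cell median was 2.12, and 7 of the 11 genes lay over 2-fold above wild type in each line, against 21.5% of all genes tested. Of 12 trophoblast genes tested of 14 (median 0.72), Cdx2, which is also a gene of posterior mesoderm, fell (37.3, 1.77 and 4.69 TPM). With the block 2 did, and Hand1 was the other.

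RNA-binding relatives of Hnrnpll showed smaller differences. Of 37 splicing factors and hnRNPs 4 fell and none rose (median -0.16): Mbnl1 (14.9, 6.74 and 4.48 TPM), Ptbp2 (112, 50.5 and 38.6), Khdrbs1 (283, 128 and 135) and Hnrnpr (191, 85.1 and 96.1), with log2 differences from -1.46 to -0.67. Hnrnpl, the closest relative, was at 321, 357 and 316 TPM (log2 0.19, SE 0.162, edgeR adjusted p = 0.482). None of the 4 passed with either knockout line left out. Of 24 cell cycle genes Ccnd3 (23.2, 87.6 and 91.4 TPM; edgeR adjusted p = 0.0449, 0.0517 with the block), Ccne1 (33.4, 77.4 and 70.6) and the helicase gene Mcm5 rose, and Ccnd2 (71.9, 7.85 and 8.97) and the inhibitor gene Cdkn1b (55.5, 25 and 24.6) fell, with a median of 0.27; the proliferation markers Mki67 (86.9, 75.4 and 66.5 TPM) and Top2a (382, 447 and 396) did not pass. Of 26 glycolysis and hypoxia genes Pfkp, Gapdh and Pdk1 rose (log2 1.4, 0.81 and 1.47) and the collagen hydroxylase gene P4ha1 fell (-1.54), though Gapdh has many processed copies that make its counts uncertain; with the block 6 rose and 1 fell.

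The largest rises among well expressed protein-coding genes were not all genes of the lists. Klhdc7a had 0 counts in wild type, 5.77 TPM in G6 and 4.55 in H8, at least 947-fold higher. Trim52 (0.444, 21.7 and 8.6 TPM), the testis cytochrome c gene Cyct (1.25, 52 and 27.6), the keratin gene Krt42 (0.807, 12.2 and 19.6) and the piRNA pathway helicase gene Mov10l1 (0.648, 9.09 and 10.3) followed, with Cnga3, Cd80, Nr0b1 and Pla2g5. Several were expressed in wild-type stem cells: at day 0 wild type had 18.1 TPM of Cyct, 13.7 of Krt42, 8.91 of Mov10l1 and 7.91 of Cd80. Beside the Y-linked genes and Actc1, Col3a1, Hapln1 and Nepn, the largest falls of protein-coding genes with a mean of at least 5 CPM were those of the sodium channel gene Scn7a (3.33, 0.0188 and 0.0607 TPM) and the matrix genes Svep1 (9.01, 0.00996 and 0.294) and Sparcl1 (7.58, 0.0578 and 0.186). In all, 189 of the 1241 higher genes were at 0 counts in wild type and 14 of the 1205 lower ones at 0 in both knockout lines. These counts are not alike, since wild type is a single library while both knockout lines had to be at 0. The filter had also left out 414 genes that reached the count minimum only in the wild-type library of day 8. It left out 283 that did so only in a knockout library of that day. The share of all genes tested at 0 is not given, so the counts are not compared.

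The difference at day 8 was set against those of the earlier days by interaction tests. Against day 4, 0 genes passed (0% of 24794; edgeR, smallest adjusted p = 0.111, 4041 at an unadjusted p under 0.05), although DESeq2 called 1577, limma on log2(TPM + 1) 337 and limma-voom 0. Against day 0, 931 genes had a higher log2 difference, knockout minus wild type, at day 8 (3.75%) and 235 a lower one (0.948%). These differences keep their sign. A higher one can thus be a shortfall of the knockout at day 0 that shrank, and a lower one a fall that grew. Pou5f1 had 1372 TPM in wild type and 1953 and 1761 in the knockout at day 0, and its difference grew by 2.23 on the log2 scale by day 8 (edgeR adjusted p = 0.0163). Of the 15 general pluripotency genes 9 had a larger difference at day 8, and of the cardiomyocyte list Tnnt2, Myl4, Myl7 and Mybpc3 had a lower one (log2 -4.68, -4.59, -4.99 and -3.83). The day 0 knockout libraries were the shallowest and had most low counts on multiples of 4 (43.5% and 42.6%), and pseudogenes made up 40.8% of the 931 genes against 11.4% of genes tested. A property of those libraries and a change with time cannot be told apart here. All counts of this test fell to 0 without either day 4 knockout library or without G6 at day 8, and to 22 and 5 without H8.

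Each knockout line was also set against wild type alone, with no test since each is 1 library. G6 had 5319 genes over 2-fold above wild type (21.5%) and 4480 below (18.1%), and H8 had 5342 (21.5%) and 3856 (15.6%). Between the lines themselves, 2638 genes were over 2-fold higher in H8 (10.6%) and 1355 in G6 (5.47%). The lists differed in how far the lines stood apart. For pluripotency no member of either list differed over 2-fold between the lines. For mesenchymal matrix 16 of 25 genes were over 2-fold higher in H8 and none in G6, for Hox genes 26 of 38 and 1, and for cardiac regulators 7 of 15 and 0. H8 was thus nearer to wild type for these lists, with medians of -2.39 against -4.12 in G6 for matrix and -2.6 against -4.18 for Hox genes. For the basement membrane list the order was the other way (median -1.33 in H8 and -0.49 in G6).

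**Figure D4:**
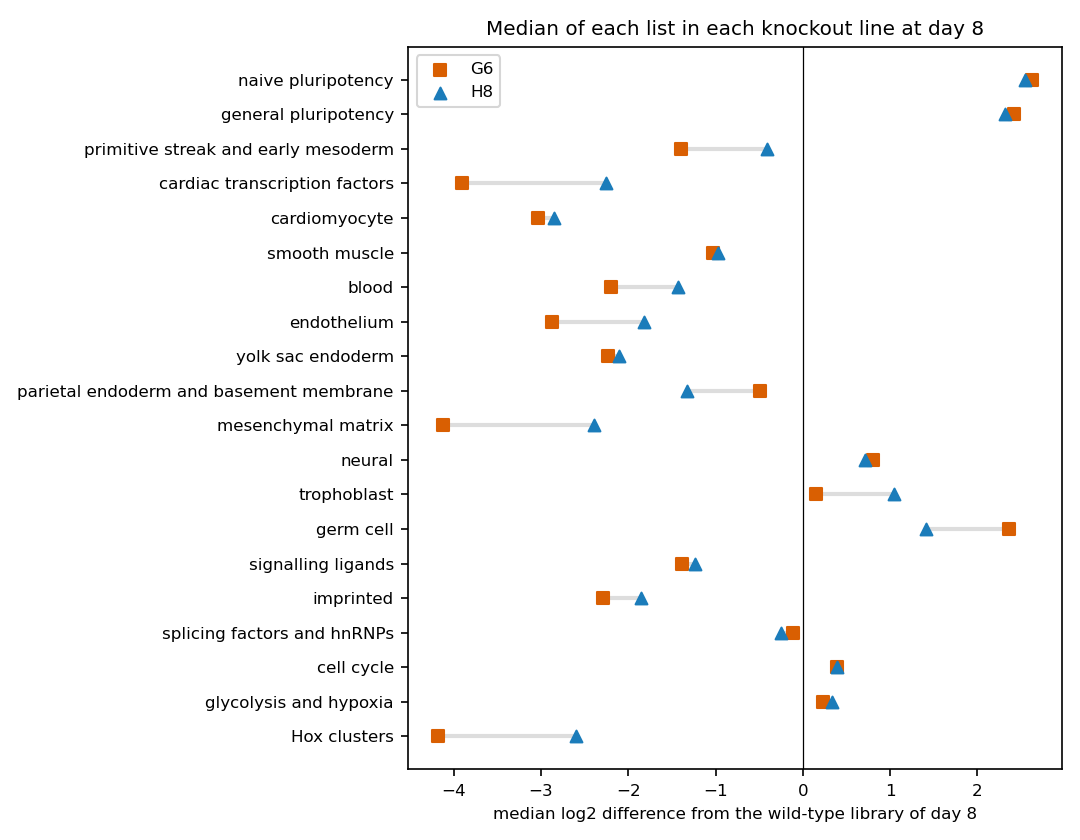
Median log2 difference of 20 lists from the wild-type library of day 8 in G6 (squares) and H8 (triangles), which share that library. The lines lie near each other for naive pluripotency (2.63 and 2.55) and apart for mesenchymal matrix (-4.12 and -2.39) and Hox clusters (-4.18 and -2.6).

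Among genes with at least 5 CPM in the higher line, those that separated the lines most were Postn and Bmp5, given above, Exosc6, which overlaps 1 other gene (21.6, 1.37 and 32.5 TPM), and the clustered protocadherin genes Pcdhga6 (0.993, 0.0293 and 2.06 TPM) and Pcdhgc4 (1.77, 0.215 and 7.4), all higher in H8. Higher in G6 were the kinase gene Wnk3 (10, 8.01 and 0.51 TPM; edgeR adjusted p for knockout against wild type 0.768, 0.0171 with the block), Pcdhgb8 (6.45, 8.71 and 0.576), Xkr6 (2.13, 5.82 and 1.08), the growth factor gene Tgfa (6.7, 3.25 and 0.597) and Grb10. The protocadherin genes share exons and overlap 26 to 29 annotated genes each, so that their counts are uncertain. At day 8 the log2 difference of Wnk3 from wild type was -0.2 in G6 and -4.19 in H8. Its value with the block is thus no sign of a change in both lines. Wnk3 was low in H8 at all 3 days (0.278, 0.809 and 0.51 TPM, against 8.01 to 10.2 in G6), while Exosc6 was not ordered by line in that way (39.5, 0.0265 and 1.37 TPM in G6 and 3.18, 33.9 and 32.5 in H8 at days 0, 4 and 8).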

How the data were processed

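PolyA+ RNA-seq libraries were prepared by the submitters, and HISAT2 2.0.5, StringTie 1.3.3b and the mm10 build are named per the submitters' processing notes; what each tool did, the annotation and whether strand was used are not given in the sources used here. The authors deposited whole-number counts per gene and, in separate files, TPM per gene, for each library. Of the count rows 259 per library name no gene (0.0242% to 0.0398% of counts) and were left out. All 49326 named genes matched GENCODE M21, from which coordinates and gene types come, and 132 identifiers that share a symbol were kept apart. Of 153 genes named by rule, 63 overlap another annotated gene, so that their counts are uncertain where strand was not used.

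To enter the test a gene had to reach 0.0791 CPM, or 10 counts at the median depth, in 2 or more libraries. The test was that of edgeR 4.0.16 after TMM normalisation of the counts (two-sided quasi-likelihood F test, R 4.3.3, Benjamini-Hochberg adjustment, threshold 0.05) in a model with 1 mean for each of 6 groups over all 9 libraries (3 residual degrees of freedom, prior 3.12, biological coefficient of variation 0.348), which was tested on simulated data. The lone wild-type library is assumed to vary like the knockout ones. Levels are given as TPM in the order wild type, G6, H8. For a fold against a group without counts, 3 counts over the whole group were assumed, which makes it a lower bound; floors cover counting error only.

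The labels name the line of each knockout library, so the line was fitted as a block in an alternative (2 residual degrees of freedom). The H8 minus G6 differences of 15732 genes had correlations of 0.196 (days 0 and 4), 0.135 (0 and 8) and 0.367 (4 and 8). Other alternatives were RLE and total count scaling, other filters, DESeq2 1.42.0, limma-voom and limma 3.58.1 on log2(TPM + 1) or log2(TPM + 0.1), a log2 difference over 1, and libraries left out. The comparison, 21 gene lists (463 genes, 448 tested) and the genes always reported were chosen with earlier results of these data known. Named are those genes, up to 6 called members of each list, the 10 largest rises and falls of called protein-coding genes that average 5 CPM or more and have 1 sign in both lines (predicted, RIKEN and clone names left out), the 5 genes of at least 5 CPM in the higher line by which the lines differ most each way, and the 5 largest interactions each way with the limits on level and name; further list members were named after their values were seen. A gene among the largest rises is not reported here. Promoters came from RefSeq (32851 starts of 27025 symbols, GRCm38.p6).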

Additional observations from a re-analysis of the deposited data

Results flagged for a closer look

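For 30 of the named genes the knockout difference at day 8 differed from that in stem cells (day 0) by edgeR's interaction test; genes with 3 counts or fewer in any of the 4 groups compared were left out. The values are differences of log2 differences, day 8 minus day 0. Pluripotency genes had a larger difference at day 8: Pou5f1 (2.23), Sox2 (2.29), Esrrb (2.09), Zfp42 (1.79), Tdgf1 (2.39), Utf1 (2.04), Dppa5a (2.33), Gdf3 (2.86) and Dppa2 (3.42). Genes of heart, red cells, yolk sac and other differentiated tissue had a lower one: Tnnt2 (-4.68), Myl7 (-4.99), Smarcd3 (-3.99), Alas2 (-4.33), Rbp4 (-4.97), Apom (-5.44), H19 (-6.06) and Frem1 (-6.62). Further genes with a higher value at day 8 were Stmn2 (2.14), Dazl (3.13), Lefty1 (5.97), Pdk1 (1.68), Xist (4.66), Cnga3 (3.54), Cd80 (4.57), Mov10l1 (2.88) and Pla2g5 (3.76). Some of these values rest partly on day 0, where wild type was higher. Lefty1 was then at 359 TPM in wild type and 23 and 21.5 in G6 and H8, with a log2 difference of 1.92 at day 8. Xist was then at 8.42, 2.9 and 3.63 TPM, with a log2 difference of 2.65 at day 8. Some of the lower values also rest partly on day 0, where the knockout was higher. Smarcd3 was then at 3.28, 19.2 and 10.3 TPM and Apom at 1.8, 3.86 and 8.27. Their log2 differences at day 8 were -2.12 and -3.66.

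The 4 others rest on day 0. Gbp2b (10.13), Gbp2 (9.22), Gadl1 (7.58) and Irgm1 (6.48) did not pass at day 8 itself; at day 0 wild type had 51.2, 62.9, 48.8 and 235 TPM of them and the knockout lines from 0.0329 to 2.55 TPM. Gbp2b and Gbp2 encode interferon-induced GTPases, and Irgm1 a relative of them. The day 0 knockout libraries, the shallowest of the series, held 54218051 (G6) and 61626609 (H8) counts, against 113059196 in wild type. The cause of these day 0 differences was not tested.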

How the results depend on the processing

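The count of 2446 genes at day 8 stayed within 1.5 times under RLE or total count scaling, other filters, log2(TPM) and a log2 difference over 1. It was 3091 with the replicate block, 4188 without the day 0 libraries (2182 higher, 2006 lower), 3769 with limma-voom (2441 lower), 5385 with DESeq2 (2769 higher, 2616 lower) and 0 with the day 8 libraries alone; with log2(TPM + 1) 2079 were lower. Leaving out single knockout libraries gave from 0 to 4196 genes (0 to 2179 higher, 0 to 2051 lower). The cause of these shifts was not tested. Against day 4 the count of 0 became 1577 with DESeq2, 337 and 1 with log2(TPM + 1) and log2(TPM + 0.1), and 0 to 1 without single libraries. Against day 0 it became 3868 with DESeq2 (2391 higher, 1477 lower) and 2006 with log2(TPM + 1) (820 lower), and 0 to 2126 without single libraries (0 to 1647 higher, 0 to 524 lower).

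Single-line counts over 2-fold shrank at 1 CPM or more, to 2640 above and 2630 below wild type in G6 and 2592 and 2211 in H8, and on log2(TPM + 1), to 1700 and 2677 in G6 and 1723 and 2200 in H8. Signs turned in genes where the lines disagree: without G6 against without H8, Lrp2 (-0.24 and 0.72), Lama1 (-0.53 and 1.43), Exosc6 (0.72 and -3.8), Xkr6 (-0.97 and 2.07), Col4a1 (-1.36 and 0.07), Pcdhgb8 (-3.34 and 0.62), Pcdhga6 (1.19 and -4.89) and Pcdhgc4 (1.32 and -3.34). Pcdhga6 was also at -0.27 with the block, -1.72 with limma-voom, and -0.17 and -1.05 with log2(TPM + 1) and log2(TPM + 0.1), and Pcdhgc4 at -0.43, -0.95 and, with log2(TPM + 0.1), -0.28. With the block 54 list genes were newly called and 6 no longer were: Mef2c, Ccnd3, Xist, Klf2 (edgeR adjusted p = 0.0521), Hoxc10 (0.0546) and Hoxa7 (0.0589). Outside the lists it newly called Hnrnpll, Wnk3 and Gbp2b, and it changed no other call of a gene named by the rule.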

Other observations

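The knockout lines stood apart from each other in the median of some chromosomes. Over 447 protein-coding genes of chromosome 15 with a mean of at least 5 CPM at day 8, the median H8 minus G6 difference was 0.47, 0.33 and 0.32 on the log2 scale at days 0, 4 and 8, and over 743 genes of chromosome 4 it was 0.19, 0.18 and 0.2. The other 18 chromosomes, X among them and Y left out, had medians from -0.08 to 0.05 at day 8. Against wild type, the 402 genes of the X chromosome had medians of -0.34 in G6 and -0.37 in H8 at day 8. The X medians were -0.12 and -0.16 on day 4 and -0.35 and -0.46 on day 0. Autosomes lay below 0 as well at day 8, among them chromosomes 1 (-0.23 and -0.25), 3 (-0.21 and -0.28) and 18 (-0.22 and -0.28). In G6 every chromosome did, and in H8 every one but chromosomes 4 (-0.06 in G6 and 0.14 in H8) and 15 (-0.06 and 0.26). These are descriptions over genes of single libraries, with no test, and DNA copy number was not analysed here.

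At day 8 2 genes of the interferon response lay above wild type in both knockout lines without passing the threshold (Gbp2b passed with the line as a block), against the order at day 0. Gbp2 had 6.94 TPM in wild type and 14.2 and 24.4 in G6 and H8 (log2 1.58, edgeR adjusted p = 0.0876), and Gbp2b had 4.94, 10.5 and 16.8 (1.59, 0.0585; 0.0241 with the line as a block). Irgm1, of the same response, lay below wild type in both lines (22, 12.8 and 13.2 TPM). At day 0 Gbp2 had 62.9 TPM in wild type and 0.43 and 0.187 in the knockout. Zbtb16, a zinc finger factor, had 0 TPM in wild type at day 0 and 11.3 at day 8, against 0.449 and 1.55 in G6 and H8 at day 8, where it fell (log2 -3.55, edgeR adjusted p = 0.0264). Frem1, a basement membrane protein of the embryonic skin, was at 36.1, 1.13 and 2.26 TPM at day 8 (log2 -4.47, edgeR adjusted p = 0.0231).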
